A study of Mus musculus with 19 samples.

Results

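Livers of mice that had received 1 of 2 single exposures were compared: a diet that produces metabolic dysfunction-associated steatohepatitis (MASH), given with vehicle (MD + Veh, n = 5), and oral polyethylene particles, given on the control diet (CD + PE, n = 5). Both groups were male wild-type C57BL/6 mice, 8 weeks old on arrival, and both were gavaged daily for 8 weeks. MD + Veh mice ate a diet with 40% of energy from fat, 20% of energy from fructose and 2% cholesterol, and their gavage was the aqueous Tween 20 carrier alone. CD + PE mice ate a matched diet with 10% of energy from fat and received 2 mg of polyethylene per mouse and day in the same carrier. The groups therefore differ in diet and in gavage at once, and a difference between them cannot be assigned to either. The control diet with vehicle (CD + Veh, n = 4) gives the level without either exposure. The MASH diet with polyethylene (n = 5) entered only the filter on low counts, the scaling and the estimate of spread between mice. The comparison takes 10 of the 19 libraries of the series, 1 per liver, and 13597 of 55836 genes passed a filter on low counts set by group and were tested. The protocol text of the sample labels speaks of 4 livers per group. The labels themselves give 5 libraries each for MD + Veh and CD + PE, and all were used. These genes were placed in 3 classes, namely those that differed between the exposures, those shown to be alike in level, and those for which neither could be shown.

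The liver makes cholesterol and fatty acids, burns fatty acids, and secretes bile acids and most plasma proteins. Its sterol pathway is held in check by its own product. When membranes hold enough cholesterol the transcription factor SREBP-2 stays in the endoplasmic reticulum and the synthetic enzymes are little transcribed, while oxysterols activate the liver X receptors, which raise sterol exporters and SREBP-1c, the activator of fatty acid synthesis. Carbohydrate sensing through ChREBP also feeds fatty acid synthesis, and Ppara drives fatty acid oxidation during fasting or lipid load.

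The files hold estimated counts per gene, not normalized. Library totals ran from 13406037 to 15417813 counts in MD + Veh and from 10398820 to 12654401 in CD + PE, so that every CD + PE library was shallower than every MD + Veh library (difference in means 3249170 counts, two-sided exact permutation test p = 0.00794, the smallest p that 5 against 5 allows). Levels below are in CPM, the count of a gene relative to the total of its library, scaled by edgeR's TMM factors. Library numbers ran from 43 to 47 in MD + Veh and from 48 to 52 in CD + PE, with vehicle libraries always numbered before polyethylene libraries, and the mice of a group shared housing, so that group, library order and cage cannot be told apart. The spread measured is that between mice of 1 group.

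Some libraries stood apart within the groups. Skeletal muscle genes (17 tested) summed to 5584 CPM in MD + Veh replicate 1 and to 701 CPM in CD + PE replicate 1, against 17.1 to 362 CPM in the other 8 libraries. Kupffer cell genes summed to 1076 CPM in CD + PE replicate 2, against 276 to 665 CPM in the other 9. The ribosomal pseudogene Rps6-ps4 was counted at 70.1, 77.6 and 74.2 CPM in MD + Veh replicates 1 to 3, and it had 0 counts in MD + Veh replicates 4 and 5 and in all 5 CD + PE libraries. Rps12-ps3 followed the same division at 24.2, 19.5 and 23.1 CPM against 0 counts. Rpl10a-ps1 was at 33.2, 32.95, 34.9, 11.8 and 0 CPM in MD + Veh and had 0 counts in CD + PE. Reads of such pseudogenes can be shared with their parent genes, so these levels are uncertain. The division falls between library numbers 45 and 46, and its part in the results was not tested beyond the following. The CD + Veh libraries (numbers 39 to 42) lie on the side of MD + Veh replicates 1 to 3, with Rps6-ps4 at 99.9 ± 6.89 CPM (SD). Changes of CD + PE against CD + Veh, given below, therefore cannot be told apart from the division. Results are given as measured over all libraries, with those for MD + Veh replicates 4 and 5 alone against CD + PE (here the comparison on 1 side of the division) for the genes described most fully. Of all 704 calls 74 were also made there. Over the 688 of these genes tested there, the median size of the log2 fold change was 0.54 and the median SE 0.188. Over all libraries the 704 had medians of 0.64 and 0.148. A call lost there is therefore not by itself a smaller difference.

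A gene was called different at an edgeR quasi-likelihood adjusted p (Benjamini-Hochberg, over all genes tested) below 0.05 where its log2 fold change was also 0.38 or more in size. A gene was called alike where 2 one-sided tests placed its log2 fold change between -0.38 and 0.38 at an adjusted p below 0.05. Log2 fold changes are MD + Veh minus CD + PE, with their standard error (SE), and n = 5 in each group. By these limits 704 genes differed (5.18% of genes tested), of which 319 were higher in MD + Veh (2.35%) and 385 lower (2.83%). Without CD + PE replicate 2 there were 1153 calls, 644 higher and 509 lower, and without MD + Veh replicate 3 there were 460. Alike in level were 3909 genes (28.7%), and the remaining 8984 met neither limit. With the fewer libraries on 1 side of the division 0 genes were shown to be alike (4086 at an unadjusted p below 0.05 in both one-sided tests), so every alike call below rests on all libraries. Most differences were modest, with a median size of 0.64 among called genes, and 197 of them passed 1 (128 higher and 69 lower in MD + Veh). The libraries of the 2 groups did not overlap for 973 genes (7.16% of genes tested), among them 435 of the 704 called. The class of a gene went with how precisely it was measured: the median SE was 0.0858 among alike and 0.148 among called genes, and the median level was 33.2 CPM among alike genes and 6.004 CPM among those in neither class. Against CD + Veh, 1410 genes (10.4%) were called in MD + Veh, 4.74% higher and 5.63% lower, and 397 (2.92%) in CD + PE, 1.22% higher and 1.7% lower. These 2 counts share their control libraries.

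**Figure D1:**
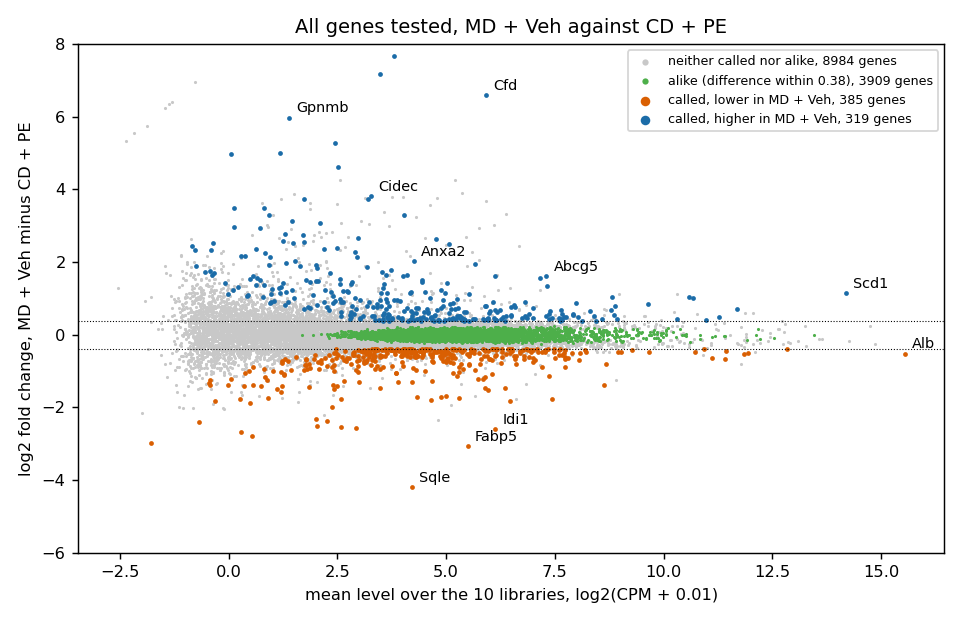
Log2 fold change between MD + Veh and CD + PE (y axis) against mean level over the 10 libraries as log2(CPM + 0.01) (x axis) for the genes tested, 1 point per gene, coloured by class. The classes hold 319 higher, 385 lower and 3909 alike genes, and 10 of the genes tested lie outside the plotted range. The alike genes lie at higher CPM (median 33.2) than the genes in neither class (median 6.004).

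The gene lists of known pathways and cell types differed in what they held. Sterol synthesis had the greatest share of called members among the pathway lists with 18 of 25 (72%), and members of the lipid droplet list (7 of 18) and of the cholesterol efflux and bile acid list (6 of 18) were called more often than the 5.18% of all genes. Among 24 stress, p53 and unfolded protein genes 0 were called by edgeR, with 2 at an unadjusted p below 0.05 and 1 called by DESeq2. Fatty acid synthesis had 5 of 24 called although 17 of its members had changed against CD + Veh in MD + Veh and 13 in CD + PE (10.4% and 2.92% of all genes).

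**Figure D2:**
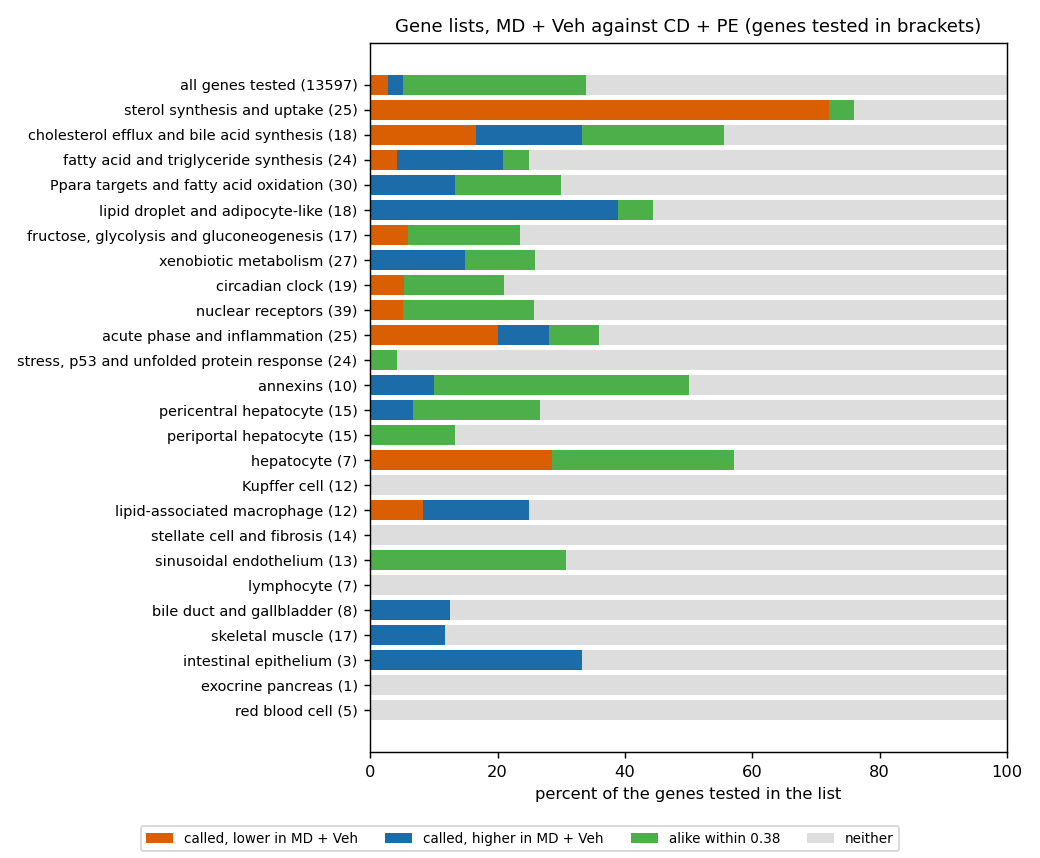
Share of the tested members of each gene list, in percent, that were lower in MD + Veh, higher in MD + Veh, alike or in neither class, 1 stacked bar per list. Sterol synthesis is the bar made mostly of lower genes (18 of 25), and the lipid droplet bar holds 7 of 18 higher and 0 lower.

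Sterol synthesis was lower in MD + Veh than in CD + PE along much of the pathway, from the phosphorylation of mevalonate to the reduction of the sterol ring. Of 25 genes tested 18 were lower (72%, against 2.83% of all genes), 0 were higher, and the list's median log2 fold change was -0.94, against -0.0066 over all genes. For 17 of the 25 the libraries of the 2 groups did not overlap, against 7.16% of all genes. Against CD + Veh, 23 of the 25 fell in MD + Veh and 12 in CD + PE (5.63% and 1.7% of all genes). These 2 counts share their control libraries, and the comparison of CD + PE with CD + Veh spans the division of library numbers.

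Sqle encodes squalene epoxidase, an early oxygen-requiring and rate-limiting step (chr15:59186869-59203043 on GRCm39, plus strand). In CD + PE it was at 17.5, 66.9, 18.7, 33.9 and 39.7 CPM in replicates 1 to 5. In MD + Veh it was at 1.77, 3.28, 1.36, 1.08 and 1.93 CPM. Every MD + Veh library lay below every CD + PE library, and the level was 18.4-fold lower in MD + Veh (log2 fold change -4.20, SE 0.417, edgeR adjusted p = 7.17e-06). Its own log2 fold change against CD + Veh was -5.65 in MD + Veh (edgeR adjusted p = 1.55e-07) and -1.45 in CD + PE (edgeR adjusted p = 0.0251).

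Idi1, which isomerizes the 5-carbon isoprenoid unit, was at 72.9, 165, 84.7, 136 and 142 CPM in CD + PE. It was at 21.2, 21.5, 16.6, 13.9 and 25.9 CPM in MD + Veh, again with no overlap (log2 fold change -2.60, SE 0.260, edgeR adjusted p = 7.27e-06). Idi1 was not called in CD + PE against CD + Veh (log2 fold change -0.74, edgeR adjusted p = 0.115). Nsdhl, a sterol dehydrogenase that acts in the removal of methyl groups from the ring, was at 35.9, 45.8, 28.6, 45.99 and 38.7 CPM in CD + PE and at 11.5, 10.8, 10.9, 9.60 and 13.3 CPM in MD + Veh. Its groups lay well apart (log2 fold change -1.80, SE 0.170, edgeR adjusted p = 4.00e-06). Tm7sf2, a sterol reductase, was lower in each MD + Veh library (39.8, 32.5, 36.1, 40.3 and 34.7 CPM) than in any CD + PE library (65.6, 79.6, 84.6, 82.4 and 97.7 CPM), with the smallest SE of the enzymes named here (log2 fold change -1.16, SE 0.122, edgeR adjusted p = 1.31e-05). Cyp51, the lanosterol demethylase, was lower too (log2 fold change -1.81, SE 0.213, edgeR adjusted p = 5.26e-05), and so were Msmo1 (-1.46), Fdft1 (-1.08) and Mvk (-0.95, all log2 fold changes).

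Not all members were called. Ebp, a sterol isomerase, was alike at 174 ± 5.25 CPM (SD) in CD + PE and 164 ± 4.64 CPM in MD + Veh. Mvd (log2 fold change -0.94, edgeR adjusted p = 0.163), Insig1 (log2 fold change -0.33, edgeR adjusted p = 0.455) and Srebf2, the gene of SREBP-2 (log2 fold change -0.28, edgeR adjusted p = 0.0498), met neither limit. On 1 side of the division 10 members of the list were called, where 80 of all 13635 genes tested were. The same number of members was called with the division as a covariate, where 136 of 13597 genes were.

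**Figure D3:**
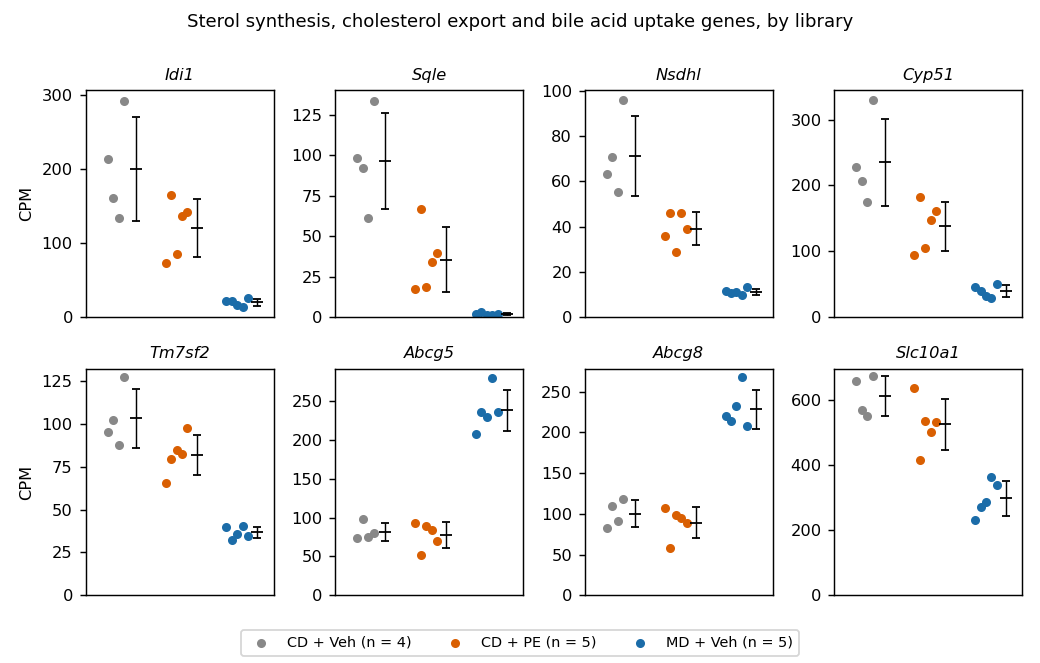
Level of 8 genes of sterol synthesis, sterol export and bile acid uptake in CPM (y axes), 1 point per library, for CD + Veh, CD + PE and MD + Veh, with bars for mean ± SD. Sqle, Idi1, Nsdhl, Cyp51 and Tm7sf2 step down without overlap from CD + PE to MD + Veh, Slc10a1 is lower in MD + Veh, and Abcg5 and Abcg8 lie higher in MD + Veh.

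SREBP-2 acts at sterol regulatory elements beside CCAAT boxes bound by NF-Y. Promoters of the sterol genes with the smallest adjusted p that the RefSeq promoter table (GRCm39, 250 bases before to 50 after the annotated start) contains are shown to place these letters, 5′ to 3′ on the gene's strand, with CCAAT or its complement ATTGG in capitals. Nsdhl is at chrX:71961877-71962176 (plus strand, 4 boxes), Idi1 at chr13:8935392-8935691 (plus strand, 2 boxes) and Tm7sf2 at chr19:6117831-6118130 (minus strand, 1 box).
Nsdhl: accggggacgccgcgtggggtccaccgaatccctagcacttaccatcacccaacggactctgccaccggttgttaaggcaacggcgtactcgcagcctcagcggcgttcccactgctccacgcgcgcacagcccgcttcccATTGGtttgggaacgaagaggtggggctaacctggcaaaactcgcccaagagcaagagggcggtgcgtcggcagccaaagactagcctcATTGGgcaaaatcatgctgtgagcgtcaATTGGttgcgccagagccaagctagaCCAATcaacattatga
Idi1: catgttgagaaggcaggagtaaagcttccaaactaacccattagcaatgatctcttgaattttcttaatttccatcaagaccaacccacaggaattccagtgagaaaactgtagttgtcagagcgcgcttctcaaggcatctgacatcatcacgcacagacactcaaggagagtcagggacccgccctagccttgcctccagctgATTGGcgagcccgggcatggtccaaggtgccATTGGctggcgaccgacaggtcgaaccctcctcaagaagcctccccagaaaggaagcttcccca
Tm7sf2: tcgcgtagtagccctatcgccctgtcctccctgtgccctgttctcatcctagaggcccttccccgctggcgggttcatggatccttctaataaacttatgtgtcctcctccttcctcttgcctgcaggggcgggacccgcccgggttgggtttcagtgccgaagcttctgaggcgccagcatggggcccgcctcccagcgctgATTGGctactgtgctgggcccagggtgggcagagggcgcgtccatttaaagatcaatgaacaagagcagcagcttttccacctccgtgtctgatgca
CCAAT on either strand was found in 16 of the 17 sterol genes with a promoter in the table (94.1%), against 11096 of 27025 genes (41.1%) and 12289 of 32851 promoters (37.4%). The sterol element TCACNCCAC, searched on both strands and not containing CCAAT, was found in 1 of the 17 (Hmgcs1), against 388 of 27025 genes (1.44%) and 1.24% of promoters. These are matches of letters in a window and not binding.

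Sterol export and bile acid handling split in direction. Of 18 genes tested 3 were higher in MD + Veh (2.35% of all genes) and 3 lower (2.83% of all genes), 4 were alike (22.2%, against 28.7% of all genes), and the median was 0.14. Abcg5 and Abcg8 encode the paired transporter that secretes sterols into bile and are liver X receptor targets. Abcg5 was at 93.6, 51.7, 89.1, 83.9 and 70.05 CPM in CD + PE. It was at 208, 236, 230.3, 281 and 237 CPM in MD + Veh, with every diet library far above the highest CD + PE library. The level was 3.07-fold higher (log2 fold change 1.62, SE 0.148, edgeR adjusted p = 2.72e-06), and the call held on 1 side of the division (edgeR adjusted p = 0.00151). Abcg8 rose with it (log2 fold change 1.35, SE 0.170, edgeR adjusted p = 9.24e-05), as did Abcg1, a cholesterol exporter (log2 fold change 1.29, edgeR adjusted p = 0.00342). Slc10a1, which takes bile acids up from blood, was at 635, 414, 535, 502 and 532 CPM in CD + PE and at 231, 271, 284, 362 and 337 CPM in MD + Veh. All 5 diet libraries lay lower (log2 fold change -0.82, SE 0.147, edgeR adjusted p = 0.00240). On 1 side of the division the log2 fold change was -0.59 (edgeR adjusted p = 0.252). Nr1h4, the bile acid receptor FXR (log2 fold change -0.49, edgeR adjusted p = 0.00338), and Soat2, which esterifies cholesterol (log2 fold change -0.63, edgeR adjusted p = 0.00278), were lower as well. The calls of Abcg1 (log2 fold change 1.01, edgeR adjusted p = 0.259) and Nr1h4 (log2 fold change -0.39, edgeR adjusted p = 0.171) were lost on 1 side of the division. Those of Abcg8 (edgeR adjusted p = 0.0236) and Soat2 (edgeR adjusted p = 0.0225) were kept there. The liver X receptor genes themselves did not separate the groups: Nr1h3 was alike at 86.5 ± 7.55 CPM (SD) in CD + PE and 86.4 ± 5.55 CPM in MD + Veh, and Nr1h2 was also alike. Cyp7a1, the rate-limiting enzyme of bile acid synthesis, was at 86.8 ± 37.2 CPM and 104 ± 43.5 CPM and met neither limit (log2 fold change 0.26, edgeR adjusted p = 0.721).

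More genes of fatty acid synthesis were called against controls, under each exposure, than between the exposures. Of 24 genes tested 14 were lower and 3 higher in MD + Veh than in CD + Veh, and 12 were lower and 1 higher in CD + PE (10.4% and 2.92% of all genes were called), and between the exposures 4 were higher in MD + Veh and 1 lower (20.8% called, against 5.18% of all genes). Fasn, the fatty acid synthase, was at 1149.6, 1393, 515, 884 and 775 CPM in CD + PE. It was at 1181, 1068, 905, 909.7 and 1378 CPM in MD + Veh, within the range of CD + PE in every library. Its log2 fold change was 0.21 (95% interval -0.34 to 0.75, edgeR adjusted p = 0.667), while against CD + Veh it fell in MD + Veh (-1.37, edgeR adjusted p = 0.00224) and in CD + PE (-1.58, edgeR adjusted p = 0.00359). The interval is too wide to call Fasn alike. Acaca, the carboxylase that makes malonyl-CoA, was at 443 ± 143 CPM in CD + Veh, 145 ± 29.6 in CD + PE and 155 ± 22.9 in MD + Veh. Acly, which supplies acetyl-CoA from citrate, stood at 1317 ± 569, 373 ± 97.4 and 293 ± 85.2 CPM, and the elongase Elovl6 at 544 ± 214, 161 ± 35.9 and 156 ± 60.8 CPM. Pnpla3, a lipase known for a human risk variant of fatty liver, was at 15.9 ± 7.74 CPM in CD + Veh against 1.85 ± 1.77 in CD + PE and 2.03 ± 1.19 in MD + Veh. None of these 4 was called between the exposures, and none was shown to be alike.

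Scd1 broke from this pattern. It encodes the stearoyl-CoA desaturase that makes monounsaturated fat and is a target of both SREBP-1c and the liver X receptors. In CD + PE it was at 11308, 16009.9, 11926, 7212 and 11624 CPM, and in MD + Veh at 23042, 31582, 24671, 25475 and 22771 CPM. The groups did not overlap (log2 fold change 1.13, SE 0.188, edgeR adjusted p = 0.00125). Against CD + Veh it was not called in MD + Veh (0.073, edgeR adjusted p = 0.844) and fell in CD + PE (-1.06, edgeR adjusted p = 0.00526). On 1 side of the division its log2 fold change was 1.05 (edgeR adjusted p = 0.0743). Srebf1, the gene of SREBP-1, was also higher in MD + Veh (341 ± 134 CPM in CD + PE, 595 ± 88.8 CPM in MD + Veh, log2 fold change 0.80, edgeR adjusted p = 0.0229), as were the acyltransferases Mogat1 (log2 fold change 2.37, edgeR adjusted p = 0.00425) and Agpat2 (log2 fold change 0.39, edgeR adjusted p = 0.0251). Acss2, which activates acetate and is a SREBP target, was lower (log2 fold change -1.15, edgeR adjusted p = 0.00236). The 5 calls of this list were lost on 1 side of the division, where the log2 fold change was -1.17 for Acss2, 0.65 for Srebf1 and 1.71 for Mogat1. The call of Srebf1 was also lost without MD + Veh replicate 1 or 3 or CD + PE replicate 3, 4 or 5.

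Khk and Cyb5a were alike in level over all libraries, a call that neither had on 1 side of the division. Khk, the ketohexokinase that commits fructose to metabolism, was at 493, 395, 449, 354 and 434 CPM in CD + PE and at 328, 441, 431, 393 and 541 CPM in MD + Veh, with overlapping libraries. Its level was alike (log2 fold change 0.0065, adjusted p of the 2 one-sided tests from edgeR 0.0106), and both groups lay below CD + Veh (681 ± 71.8 CPM, SD, n = 4), by -0.67 and -0.68 on the log2 scale. Cyb5a, the cytochrome b5 that passes electrons to desaturases and cytochromes P450, was at 915, 624, 974, 857 and 791 CPM and at 678, 796, 857, 939 and 909 CPM. It too was alike (log2 fold change 0.0058, adjusted p of the 2 one-sided tests 0.0125), above the 539 ± 48.2 CPM of CD + Veh in both groups (log2 fold changes 0.63 in MD + Veh and 0.63 in CD + PE). Both comparisons use the same 4 control libraries. Of 17 genes of fructose use, glycolysis and gluconeogenesis, 3 were alike (Khk, Fbp1 and Pfkl, 17.6% against 28.7% of all genes) and 1 was lower in MD + Veh, namely Ppargc1a, a coactivator of fasting metabolism (log2 fold change -0.87, edgeR adjusted p = 0.0412), or 5.88% called against 5.18% of all genes. Its call was lost in 14 of 30 alternatives, among them the 10 libraries alone and 1 side of the division (log2 fold change -0.99, edgeR adjusted p = 0.281).

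**Figure D4:**
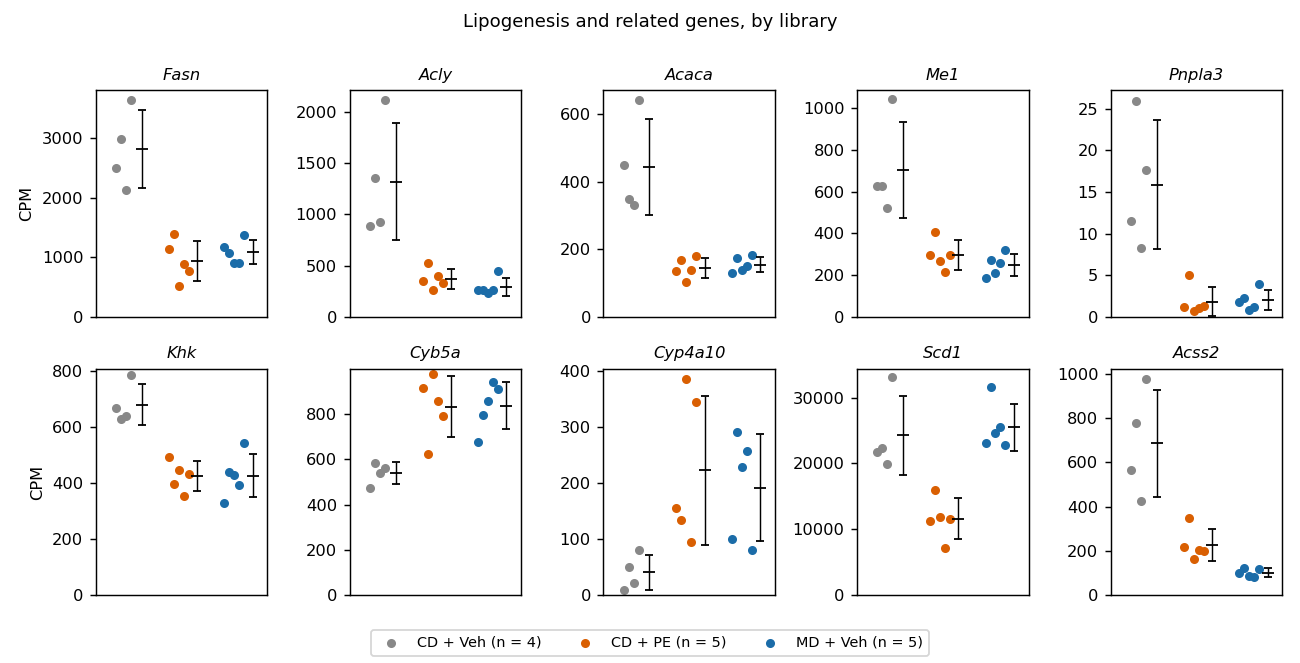
Level of 10 genes of fatty acid synthesis, fructose use and fatty acid oxidation in CPM (y axes), 1 point per library, for CD + Veh, CD + PE and MD + Veh, with bars for mean ± SD. Fasn, Acly, Acaca, Me1 and Pnpla3 have lower means under both exposures than in CD + Veh, Khk and Cyb5a sit at the same level in both, and Scd1 is low only in the CD + PE libraries.

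Of 18 genes of lipid droplets and of adipocytes that were tested, 7 were higher in MD + Veh (38.9%, against 2.35% of all genes), 0 were lower, 1 was alike and 10 met neither limit, and the median was 0.44. Against CD + Veh 13 rose in MD + Veh and 1 in CD + PE, beside 4.74% and 1.22% of all genes. Cfd, adipsin, an adipocyte protease of the complement system (chr10:79726668-79728496 on GRCm39, plus strand), was at 1.08, 1.49, 2.12, 0.502 and 0.889 CPM in CD + PE. In MD + Veh it was at 66.9, 133, 224, 84.2 and 88.6 CPM. The lowest diet library lay far above the highest CD + PE library, and the level was 95.9-fold higher (log2 fold change 6.58, SE 0.494, edgeR adjusted p = 3.06e-07), also on 1 side of the division (edgeR adjusted p = 2.64e-05).

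Cidec, which fuses lipid droplets, was at 1.16, 0.702, 2.21, 0.904 and 1.48 CPM in CD + PE and at 27.3, 22.1, 20.9, 13.8 and 6.72 CPM in MD + Veh. All diet libraries were above all CD + PE libraries, with replicate 5 the lowest of them (log2 fold change 3.81, SE 0.521, edgeR adjusted p = 0.000250). Its relative Cidea had 7 counts in CD + PE over 5 libraries and 319 in MD + Veh (edgeR adjusted p = 0.000327). Cd36, a fatty acid transporter, was at 33.7, 37.1, 55.4, 14.2 and 30.8 CPM and at 108, 136, 121, 97.7 and 66.3 CPM without overlap (log2 fold change 1.63, SE 0.319, edgeR adjusted p = 0.00425). On 1 side of the division its log2 fold change was 1.25 (edgeR adjusted p = 0.140). Plin4, a droplet coat protein (log2 fold change 1.45, edgeR adjusted p = 0.00708), Fabp4 (log2 fold change 1.40, edgeR adjusted p = 0.0161) and the lipoprotein lipase Lpl (log2 fold change 1.94, edgeR adjusted p = 0.00347) completed the called members. Lpl stood at 178 CPM in MD + Veh replicate 1, the library with the highest muscle genes. Plin2, the main droplet coat protein of hepatocytes, was at 359.7 ± 81.3 CPM in CD + PE and 456 ± 38.03 CPM in MD + Veh and was not called (log2 fold change 0.34, edgeR adjusted p = 0.171), and Cideb, the hepatocyte member of the Cide family, was alike. Car3, abundant in liver and fat, was at 3768 ± 738 CPM and 3810.3 ± 551 CPM, against 1859 ± 493 CPM in CD + Veh, and just missed the limit for alike genes (adjusted p of the 2 one-sided tests 0.0918). Without MD + Veh replicate 1, 6 members of the list were called (beside 516 of 13476 genes tested), and Fabp4 was not (edgeR adjusted p = 0.0516). Cfd, Cidea and Cidec were the 3 called on 1 side of the division (beside 80 of 13635 genes). Fabp4 (edgeR adjusted p = 0.569), Plin4 (0.406) and Lpl (0.251) were lost there, with log2 fold changes of 0.83 for Plin4 and 1.00 for Lpl.

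The defining adipocyte genes were too low to be tested. Adipoq, the fat cell hormone adiponectin, had 2, 1, 0, 0 and 0 counts in CD + PE and 66, 9, 2, 0 and 0 counts in MD + Veh replicates 1 to 5. Plin1, the droplet coat protein of fat cells, had 2, 2, 0, 0 and 1 counts in CD + PE and 63, 6, 2, 0 and 0 counts in MD + Veh. Both were thus highest in MD + Veh replicate 1, and Cfd stood at 84.2 and 88.6 CPM and Cidec at 13.8 and 6.72 CPM in replicates 4 and 5, where both adipocyte genes had 0 counts. The part of fat tissue in the levels of the other members was not tested.

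Of 30 Ppara targets and fatty acid oxidation genes 4 were higher in MD + Veh (13.3%, against 2.35% of all genes), 0 lower and 5 alike (16.7%, against 28.7% of all genes), with a median of 0.063. Against CD + Veh 13 rose in MD + Veh and 6 in CD + PE, beside 4.74% and 1.22% of all genes. Acaa1b, a peroxisomal thiolase, was at 1092, 871, 1553, 760.4 and 1131 CPM in CD + PE and at 2052, 2468, 2247, 2202 and 2024 CPM in MD + Veh. Its level was higher in MD + Veh (log2 fold change 1.02, SE 0.156, edgeR adjusted p = 0.000688). The peroxisomal enzymes Hsd17b4 (0.45) and Ehhadh (0.56) were higher by small log2 fold changes, while the mitochondrial Hadha, Hadhb, Cpt2 and Slc25a20 were alike. Acaa1b kept its call on 1 side of the division (edgeR adjusted p = 0.0477). Those of Hsd17b4 (log2 fold change 0.52, edgeR adjusted p = 0.0756) and Ehhadh (log2 fold change 0.56, edgeR adjusted p = 0.216) were lost there. The call of Ehhadh was also lost without MD + Veh replicate 2, 3 or 4 or CD + PE replicate 4. Cyp4a10, an omega-hydroxylase and a sensitive Ppara target, was at 156, 134, 385, 94.5 and 345 CPM in CD + PE and at 101, 291, 229, 258 and 80.3 CPM in MD + Veh. The libraries of each group spread over a wide and shared range (log2 fold change -0.22, SE 0.486, edgeR adjusted p = 0.823), and against CD + Veh the log2 fold change was 2.24 in MD + Veh (edgeR adjusted p = 0.0108) and 2.45 in CD + PE (edgeR adjusted p = 0.0191). Cyp4a14 was not called between the exposures (log2 fold change -1.37, edgeR adjusted p = 0.274). Reads can be shared among the near-identical Cyp4a genes, so single members are uncertain. Ppara itself was at 82.5 ± 15.3 CPM and 88.3 ± 16.6 CPM (log2 fold change 0.098, edgeR adjusted p = 0.704).

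Among 27 genes of drug and steroid metabolism 4 were higher in MD + Veh, 0 lower and 3 alike. The share called (14.8%) stood against 5.18% of all genes, and the share alike (11.1%) against 28.7%. Cyp3a11, the main drug-oxidizing cytochrome P450 of its subfamily in mouse liver, was at 948, 687, 1304, 904 and 1212 CPM in CD + PE and at 1585, 2335, 2229, 2244 and 1918 CPM in MD + Veh. Every diet library was higher (log2 fold change 1.03, SE 0.176, edgeR adjusted p = 0.00159). Gsta2, a glutathione transferase, was higher too (log2 fold change 1.16, edgeR adjusted p = 0.00492), with the reservation that its reads can be shared with Gsta1. The call of Gsta2 was lost on 1 side of the division (log2 fold change 0.90, edgeR adjusted p = 0.273). Cyp2b10, the classical target of the receptor CAR, was low in both groups, with 12 counts in CD + PE and 93 in MD + Veh (edgeR adjusted p = 0.0473), and its call was lost in 17 of 28 alternatives. Sult1e1, which inactivates estrogens, had 3 counts over the 5 CD + PE libraries and 142 over the 5 MD + Veh libraries.

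Among plasma protein genes, the fibrinogen chains and serum amyloid P were lower in MD + Veh and the orosomucoid genes Orm2 and Orm3 were higher, and of these Orm3 and serum amyloid P kept their calls on 1 side of the division. Of 25 acute phase and inflammation genes 5 were lower in MD + Veh and 2 higher (28% called, against 5.18% of all genes), and 2 were alike (8%, against 28.7% of all genes). Against CD + Veh 8 fell and 4 rose in MD + Veh, where 10.4% of all genes were called, and 0 were called in CD + PE by edgeR (3 at an unadjusted p below 0.05), where 2.92% of all genes were. The 3 chains of fibrinogen, the clotting protein, were lower together. Fgb was at 4856, 3993, 4387, 4330.2 and 4265 CPM in CD + PE and at 2802, 2955, 3367, 3161 and 2889 CPM in MD + Veh. Its groups did not overlap (log2 fold change -0.52, SE 0.0873, edgeR adjusted p = 0.00129), and Fga (-0.49) and Fgg (-0.44) had log2 fold changes of like size. All 3 calls were lost on 1 side of the division (edgeR adjusted p = 0.0807 for Fga, 0.0747 for Fgb and 0.133 for Fgg). The log2 fold changes there were -0.46 for Fga, -0.53 for Fgb and -0.37 for Fgg. The call of Fgg was also lost without MD + Veh replicate 1. Apcs, serum amyloid P, was lower (log2 fold change -1.04, edgeR adjusted p = 0.000250), as was Itih3, which binds hyaluronan (log2 fold change -0.41, edgeR adjusted p = 0.0174). Orm3 rose to 6.16 ± 2.19 CPM in MD + Veh from 0.446 ± 0.284 CPM in CD + PE (log2 fold change 3.74, edgeR adjusted p = 2.36e-05) and Orm2 was higher (log2 fold change 1.65, edgeR adjusted p = 0.0123), while Orm1 was alike (484 ± 101 and 485 ± 55.9 CPM). The calls of Orm2 (edgeR adjusted p = 0.329) and Itih3 (0.406) were lost on 1 side of the division. The Orm genes encode orosomucoid, a plasma carrier, and are near-identical, so the division of reads among them is uncertain. The serum amyloid genes Saa1 (log2 fold change 1.24, edgeR adjusted p = 0.216) and Saa2 (log2 fold change 1.23, edgeR adjusted p = 0.216) were not called.

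Alb, serum albumin, was at 54827, 45968, 57858, 55144 and 69169.5 CPM in CD + PE and at 30524, 43304, 43468, 42395 and 36743 CPM in MD + Veh, each diet library below each CD + PE library (log2 fold change -0.53, SE 0.139, edgeR adjusted p = 0.0247). Ahsg, fetuin-A, was also lower (log2 fold change -0.40, edgeR adjusted p = 0.0374), and Apob and Cps1 were alike. The list of 7 tested hepatocyte markers had a median of -0.25, with Ttr (log2 fold change -0.25, edgeR adjusted p = 0.106) and Apoa1 (log2 fold change -0.25, edgeR adjusted p = 0.124) not called and 1 member, Serpina1c, above 0 (log2 fold change 0.053, edgeR adjusted p = 0.853). In bulk tissue, fewer hepatocytes and less of a transcript per hepatocyte cannot be told apart. Both calls were lost on 1 side of the division, where the log2 fold change was -0.52 for Alb (edgeR adjusted p = 0.224) and -0.27 for Ahsg (0.544). The call of Alb was lost in 6 of 30 alternatives, among them the 10 libraries alone, no filter on low counts, and CD + PE replicate 3 or 5 left out. That of Ahsg was lost in 11 of 30.

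**Figure D5:**
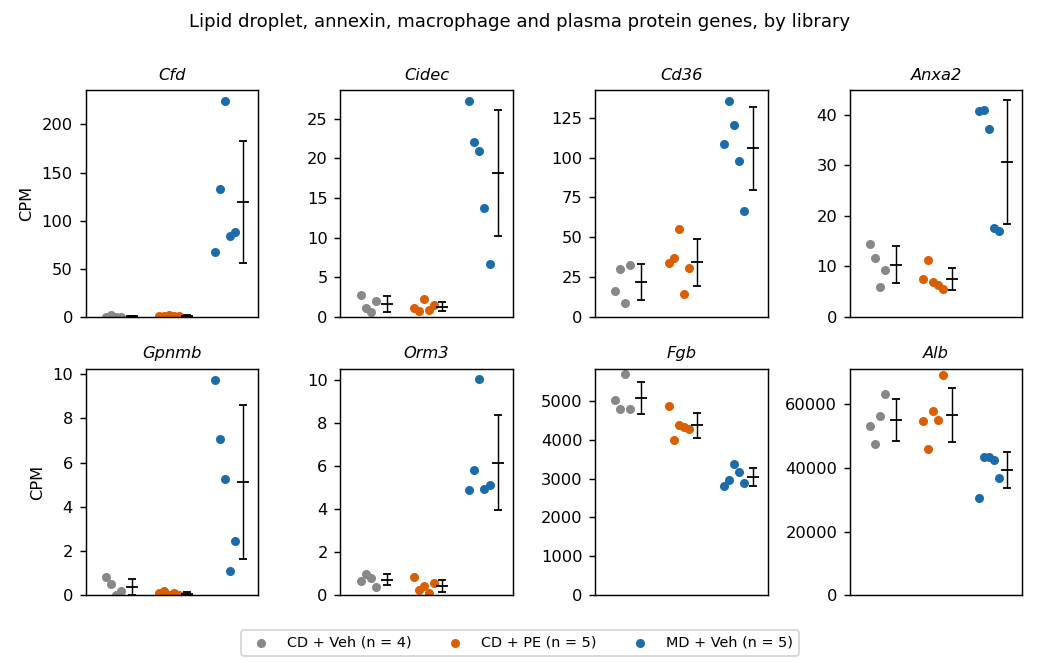
Level of 8 genes of lipid droplets, annexins, macrophages and plasma proteins in CPM (y axes), 1 point per library, for CD + Veh, CD + PE and MD + Veh, with bars for mean ± SD. Cfd, Cidec and Cd36 lie higher in MD + Veh without overlap, Anxa2 and Gpnmb are highest in MD + Veh replicates 1 to 3, and Fgb and Alb lie lower in MD + Veh.

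Anxa2, a calcium-dependent membrane-binding annexin, was the member of 10 annexins that edgeR called (10%, against 5.18% of all genes), and DESeq2 called 2. It was at 7.56, 11.2, 6.89, 6.23 and 5.53 CPM in CD + PE. In MD + Veh it was at 40.6, 40.8, 37.1, 17.5 and 16.9 CPM, with replicates 1 to 3 at a mean of 39.5 CPM and replicates 4 and 5 at 17.2 CPM, which are the sides of the division of library numbers. The groups did not overlap (log2 fold change 2.03, SE 0.389, edgeR adjusted p = 0.00362). On 1 side of the division the log2 fold change was 1.19 (edgeR adjusted p = 0.324). Anxa6, Anxa7 and 2 further annexins were alike (40%, against 28.7% of all genes).

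Markers of lipid-associated macrophages, the cells that take up lipid in the steatotic liver, were low. Gpnmb, a membrane glycoprotein of these cells, had 4 counts over the 5 CD + PE libraries and was at 9.76, 7.06, 5.25, 1.08 and 2.47 CPM in MD + Veh, with replicates 1 to 3 highest (log2 fold change 5.97, SE 1.30, edgeR adjusted p = 0.00830). Mmp12, macrophage elastase, was higher as well (log2 fold change 3.50, edgeR adjusted p = 0.0252). Both calls were lost on 1 side of the division (edgeR adjusted p = 0.308 for Gpnmb and 0.375 for Mmp12), where the log2 fold changes were 4.42 and 2.75. That of Mmp12 was also lost without MD + Veh replicate 1 or CD + PE replicate 1 or 3. Trem2, the receptor that defines these cells, had 14 counts in CD + PE and 87 in MD + Veh and was not called (log2 fold change 2.16, edgeR adjusted p = 0.128). The other called member of the 12 went the other way. Fabp5 (chr3:10077602-10081674 on GRCm39, plus strand), a fatty acid carrier of many cell types, was at 59.6, 119, 40.1, 83.9 and 99.98 CPM in CD + PE and at 7.04, 10.03, 9.07, 4.57 and 17.4 CPM in MD + Veh. Every diet library was lower (log2 fold change -3.07, SE 0.320, edgeR adjusted p = 1.31e-05), also on 1 side of the division (edgeR adjusted p = 0.0290). Against 329 ± 95.6 CPM in CD + Veh it fell under both exposures, by a log2 fold change of -5.10 in MD + Veh (edgeR adjusted p = 4.20e-08) and -2.03 in CD + PE (edgeR adjusted p = 0.00126). Of the 12 markers edgeR called 3 (25%, against 5.18% of all genes). There were 5 called by DESeq2, and 6 by edgeR without CD + PE replicate 2 (beside 1153 of 13608 genes), where the list's median was 1.58 in place of 0.73.

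Markers of other cell types were counted in short lists, and with 5.18% of all genes called, 0 or 1 called in such a list is not a result about its cell type. Kupffer cell markers (12 tested) had 0 called by edgeR and by DESeq2 and 0 at an unadjusted p below 0.05. Their summed level was 414, 1076, 342, 465 and 276 CPM in CD + PE and 521, 558, 624, 602 and 665 CPM in MD + Veh. Marco, a scavenger receptor of these cells, was at 256 CPM in CD + PE replicate 2. Without that library 6 of the 12 were called, and 1153 of all 13608 genes tested. Stellate cell and fibrosis genes (14 tested) had 0 called by either tool and 5 at an unadjusted p below 0.05, and Col1a1, the main fibrillar collagen, was at 5.92 ± 2.64 CPM in CD + PE and 17.4 ± 12.98 CPM in MD + Veh (log2 fold change 1.56, edgeR adjusted p = 0.1003). Sinusoidal endothelium (13 tested) had 0 called by either tool, 0 at an unadjusted p below 0.05 and 4 alike. Lymphocyte markers (7 tested) had 0 called by either tool and 2 at an unadjusted p below 0.05. Krt23, a keratin of duct cells and of stressed liver, was higher in MD + Veh (log2 fold change 2.78, edgeR adjusted p = 8.02e-05) and was the called member of 8 duct and gallbladder genes. Of 10 gut genes 3 were tested and 1 was called. Fabp2, an intestinal fatty acid carrier, was higher (log2 fold change 0.76, edgeR adjusted p = 0.000459), Anpep, an aminopeptidase, had a smaller difference of the other sign without overlap and under the limit of 0.38 (log2 fold change -0.22, edgeR adjusted p = 0.0472), and Lgals4 was not called (log2 fold change -0.55, edgeR adjusted p = 0.451). The gut markers Phgr1, Cdx1 and Cdx2 were at 0 in all 10 libraries, and Vil1, villin, had 5, 1, 1, 4 and 6 counts in CD + PE and 6, 1, 1, 2 and 1 in MD + Veh. Muc13, a gut mucin, had 2 and 6 counts in MD + Veh replicates 1 and 4, and Sis, sucrase-isomaltase, had 4 in replicate 4, with 0 counts of either in the other libraries compared. Of 10 genes of the exocrine pancreas Cela1 alone was tested (log2 fold change -0.69, edgeR adjusted p = 0.0774). Skeletal muscle genes had a median of 2.94 with 2 of 17 called, of which Myh2 had 2 counts in CD + PE and stood at 539, 35.1, 8.32, 1.55 and 0 CPM in MD + Veh. Their level moved with MD + Veh replicate 1: without it the median was 0.11 and 1 was called, and on 1 side of the division the median was -2.997. Red blood cell genes (5 tested) had 0 called by edgeR, 1 by DESeq2 and 4 at an unadjusted p below 0.05, and without CD + PE replicate 2, where Hba-a1 was at 169 CPM, 4 were called.

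Some hepatocyte genes mark a position in the lobule, near the central vein (pericentral) or the portal vein (periportal). Of 15 pericentral genes 1 was called (6.67%, against 5.18% of all genes) and 3 were alike (20%, against 28.7% of all genes). Of 15 periportal genes 0 were called by edgeR, 2 by DESeq2 and 2 at an unadjusted p below 0.05, and 2 were alike (13.3%). Against CD + Veh 5 pericentral genes rose in MD + Veh and 4 in CD + PE (4.74% and 1.22% of all genes), and 6 periportal genes fell in MD + Veh and 2 in CD + PE (5.63% and 1.7% of all genes).

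Of 19 clock genes 1 was called between the exposures (5.26%, against 5.18% of all genes), while 11 differed from CD + Veh in MD + Veh and 3 in CD + PE (10.4% and 2.92% of all genes). Alike between the exposures were 3 (15.8%, against 28.7% of all genes). Clock, the activator that pairs with Bmal1, was alike at 43.9 ± 6.41 CPM in CD + PE and 41.8 ± 2.52 CPM in MD + Veh, against 28.4 ± 7.07 CPM in CD + Veh. Cry2 and Rora were alike as well. Bmal1 was at 6.14, 20.9, 7.15, 6.33 and 5.73 CPM in CD + PE and at 13.9, 19.5, 15.5, 10.99 and 7.96 CPM in MD + Veh, with CD + PE replicate 2 apart from its group (log2 fold change 0.55, edgeR adjusted p = 0.331). Bhlhe40, a repressor of the clock, was the called member (log2 fold change -0.59, edgeR adjusted p = 0.0355), but its call was lost in 10 of 30 alternatives. Of the clock genes edgeR called 5 without CD + PE replicate 2, where 1153 of all 13608 genes tested were called. It called 0 without MD + Veh replicate 1 or on 1 side of the division. DESeq2 called 2 over all libraries, where 3 had an unadjusted p below 0.05. Of 39 nuclear receptor genes 8 were alike (20.5%, against 28.7% of all genes), among them Rxra, Nr1h3 and Nr3c1, the glucocorticoid receptor, and 2 were lower in MD + Veh, Nr1h4 and Nr2c1 (log2 fold change -0.42, edgeR adjusted p = 0.0419), a share of 5.13% against 5.18% of all genes. The call of Nr2c1 was lost in 12 of 30 alternatives.

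The largest differences with no overlap between groups lay partly outside these lists. Higher in MD + Veh were Ntrk2, a neurotrophin receptor (1.28 ± 0.528 CPM in CD + PE, 17.3 ± 9.08 CPM in MD + Veh, log2 fold change 3.75, SE 0.435, edgeR adjusted p = 4.76e-05), Themis (2.76), a T cell signalling gene, and Adam11, a catalytically inactive metalloprotease relative (2.50). Gramd1b, which moves cholesterol from the plasma membrane to the endoplasmic reticulum, was at 1.74, 1.67, 1.59, 2.11 and 1.88 CPM in CD + PE and at 10.1, 10.2, 12.3, 8.13 and 6.49 CPM in MD + Veh. Its groups were widely separated (log2 fold change 2.39, SE 0.195, edgeR adjusted p = 8.12e-07). The long noncoding RNA Gm19619 had a difference of like size (log2 fold change 2.36, SE 0.160, edgeR adjusted p = 1.08e-07), and Ifi27l2b, an interferon-inducible family member, was higher (log2 fold change 2.27, edgeR adjusted p = 0.00292). Lower in MD + Veh beside Sqle, Fabp5 and Idi1 were Chrna4, a nicotinic receptor subunit (log2 fold change -2.56, edgeR adjusted p = 0.00239), Pdzk1ip1, a membrane protein that binds PDZ proteins (log2 fold change -2.51, edgeR adjusted p = 0.000347), Adgrf1, an adhesion receptor (log2 fold change -2.36, edgeR adjusted p = 0.0102), and the membrane protease Prss8 (log2 fold change -2.33, edgeR adjusted p = 0.00108). Enho, which encodes the secreted peptide adropin, was at 8.27 ± 6.49 CPM in CD + PE and 2.07 ± 0.339 CPM in MD + Veh (log2 fold change -1.99, edgeR adjusted p = 0.00778). On 1 side of the division the calls of Ntrk2, Themis, Adam11, Gramd1b, Gm19619 and Pdzk1ip1 were kept. Those of Ifi27l2b (edgeR adjusted p = 0.258), Chrna4 (0.132), Adgrf1 (0.407), Prss8 (0.0807) and Enho (0.224) were lost. The log2 fold changes there were 1.59 for Ifi27l2b, -2.75 for Chrna4, -1.55 for Adgrf1, -2.74 for Prss8 and -1.87 for Enho. All are members that the rule chose for size and separation, so these values describe them.

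Of the 26 genes that the study names for these data, 5 were called here (19.2%, against 5.18% of all genes) and 1 was alike (3.85%, against 28.7%). Anxa2 and Plin4 were higher in MD + Veh, and 3 were lower, among them Tm7sf2 and Acp3, an acid phosphatase (log2 fold change -1.003, edgeR adjusted p = 0.0246). On 1 side of the division the log2 fold change of Acp3 was -1.18 (edgeR adjusted p = 0.151). Cyb5a was alike. The other 20 met neither limit. Among them, mt-Nd6, a subunit of mitochondrial complex I, was at 373, 294, 519.8, 408 and 402 CPM in CD + PE and 166, 188, 229.6, 437 and 479.9 CPM in MD + Veh, with MD + Veh replicates 1 to 3 below every CD + PE library (log2 fold change -0.41, edgeR adjusted p = 0.320).

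Genes shown to be alike included carriers secreted into plasma and an enzyme of the urea cycle. Among the alike genes with the highest CPM were Trf, the iron carrier transferrin (11296 ± 732 CPM in CD + PE, 11288 ± 575 CPM in MD + Veh, log2 fold change -0.0010), Apob, the scaffold of very-low-density lipoprotein (4508 ± 177 and 4452 ± 366 CPM, -0.018), Gc, which carries vitamin D (4938 ± 347 and 4534 ± 415 CPM, -0.12), and Cps1, the entry enzyme of the urea cycle (2750.2 ± 409 and 2709 ± 411 CPM, -0.022). Of the 3909 alike genes 2719 differed by less than 0.1 on the log2 scale. The median half-width of the 95% interval was 0.18 for alike genes and 0.427 for genes in neither class, so that for most of the latter a difference of the size of the limit was not detectable at this depth and spread.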

How the data were processed

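Poly(A) RNA of 19 livers was sequenced by the authors in stranded libraries. Reads were trimmed with fastp 0.23.4 and assigned with Salmon 1.10.3 to the GENCODE transcriptome of GRCm39, with correction for sequence bias, and the authors deposited estimated counts per gene, summed with tximport and held as whole numbers without normalization or filter. The GENCODE release is not given in the sources used here, and 0 columns of the table were left out. Groups came from the sample labels, and housing, diet and dose from the study's methods.

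Genes were tested with edgeR 4.0.16 in R 4.3.3 (filterByExpr by group, TMM, quasi-likelihood F test, Benjamini-Hochberg adjustment), with all 19 libraries in 1 fit and 1 coefficient per group. SE is the size of the log2 fold change divided by the square root of F. The 2 one-sided tests used this SE and the degrees of freedom of the fit, and no alike call was made under 10 counts over both groups. DESeq2 1.42.0 was an alternative, beside RLE factors, other filters, fold limits and dispersions, the 10 libraries alone, the replicate number as a block, the division of library numbers, thinning to equal depth, and each library left out in turn. No 2 libraries of a group were copies: over 20 pairs the mean squared difference in units of counting error was 12.6 to 83.1, and at most 1.85% of genes were identical. On simulated data for this comparison (13597 genes, 200 changed by 1 on the log2 scale) edgeR recovered 75.5%, 3.54% of calls were unchanged genes, and 1 of 200 genes at the limit was called alike.

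The comparison and the gene lists were chosen with earlier results of these data known. Named genes are the 10 largest calls per direction without overlap whose higher group averaged 5 CPM or more, from each list up to 4 called and 2 alike members and the most abundant marker, the genes the study names, the 3 pseudogenes and the 10 alike genes with the highest CPM. Other list members are named to complete a list, and Cyp4a10, Cyp4a14, Bmal1, Acaca, Elovl6, Fgg, Abcg1, Cd36, Trem2, Col1a1, Car3, Marco, Mb, Adipoq, Plin1 and Khk were chosen after their values were seen. Some genes that the rule names are not reported here.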

Additional observations from a re-analysis of the deposited data

Results flagged for a closer look

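Among 280 groups of 5 libraries (140 named genes in both groups) 27 held a library that lay apart from the other 4 by more than Dixon's 95% limit on the gap, a limit that chance passes in about 1 in 20 groups. Of the 27, 6 belong to genes chosen after their values were seen, so the tally is a description and is not set against chance. The values are given in CPM, and no explanation was tested.

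Of these, 7 were in MD + Veh replicate 1. They were the muscle genes Myh2 (539), Acta1 (775), Mb (330) and Pvalb (47.9) and Lpl (178), all high, and Nr1h4 (58.5) and the immunoglobulin transporter Pigr (1296), both low. CD + PE replicate 1 was high in 4, again muscle genes: Acta1 (155), Mb (24.4), Pvalb (0.996) and Myh2 (0.166).

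CD + PE replicate 2 held 7. It was high in Marco (256), Hba-a1 (169), Onecut1 (109.6), Bmal1 (20.9) and Pnpla3 (5.00), and it stood apart in Abcg1 (13.2) and Gc (4329). CD + PE replicate 4 stood apart in Adgrf1 (16.1) and in Enho (19.8), and replicate 5 in the bile salt exporter Abcb11 (523) and in the leptin receptor Lepr (20.6).

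MD + Veh replicate 3 stood apart in Cidea (9.41) and Orm3 (10.02), and replicate 5 in Acly (443), Elovl6 (262) and Adgrf1 (4.48).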

How the results depend on the processing

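The 704 called and 3909 alike genes became 705 and 3961 with RLE factors, 879 and 3567 with DESeq2, 549 and 3364 without a filter, 717 and 4100 with a stricter filter, 685 and 3919 with robust dispersion, 526 and 3743 with only the 10 libraries, and 666 and 3701 after thinning to equal depth. Without a minimum fold, and with alike genes within 0.58, the counts were 1124 and 7923. The share of calls higher in MD + Veh was 45.3%, and 52.8% without a filter and 51.9% with only the 10 libraries. Leaving out 1 library gave 460 (without MD + Veh replicate 3) to 1153 calls (without CD + PE replicate 2, 55.9% higher) and 3188 to 4014 alike genes. The difference in mean library totals was 3026030 to 3593740 counts with 1 library left out and 3241650 over tested genes.

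With the division of library numbers as a covariate 136 genes were called, of which 115 were among the 704, and 1713 were alike. On 1 side of the division, with only MD + Veh replicates 4 and 5 against CD + PE, 80 genes were called, of which 74 were among the 704, and 684 of the 688 of the 704 that were tested there had the same sign. There 0 genes were alike, with 4086 at an unadjusted p below 0.05 in both one-sided tests. That comparison has fewer libraries, and the part of the division itself was not tested. Of 140 named genes 32 lost their call with the covariate and kept their sign. Another 3 called genes lost their call with the covariate and did not keep their sign. Of these 3, Pvalb turned to -2.53, while Rps6-ps4 and Rps12-ps3 were fitted at 0. Of the 135 named genes tested on 1 side 35 lost their call there (Myh2, Pvalb, Trem2, Rps6-ps4 and Rps12-ps3 were not tested there). Of named genes that had not been called, 19 had the other sign with the covariate and 19 on 1 side, among them Acta1 (2.43 over all libraries, -3.96 with the covariate and -3.95 on 1 side), Mb (3.90, -1.60 and -1.55), Hba-a1 (1.29, -0.19 and -0.19) and mt-Nd6 (-0.41, 0.20 and 0.20). The cause was not tested.

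Groups shared replicate numbers, but same-numbered libraries did not deviate together in every pair (correlations 0.41, 0.0857, 0.0293, 0.19 and 0.0799), so they were treated as unpaired. With the replicate number as a block, 711 genes were called and 3837 were alike, and 2 named genes, Cyp2b10 and Ppargc1a, lost their call.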
